A study of Homo sapiens with 14 samples.

Results

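The AKR1 aldo-keto reductase genes were followed through both expression tables of a study of the established human glioblastoma line U251MG. The members were the 7 rows named AKR1A1, AKR1B1, AKR1B10, AKR1C1, AKR1C2, AKR1C3 and AKR1E2, of 24461 gene rows in each table. In all, 4 groups of 3 RNA-seq libraries were compared in pairs, and ATAC-seq, a map of open chromatin, was done on 1 radioresistant and 1 control library. Radioresistant cells had been given 60 Gy of X-rays, split into 30 doses of 2 Gy. Control cells are labelled as control, and the labels give no irradiation scheme of their own for them. Cells labelled shIFI16 were radioresistant U251MG cells with a short hairpin RNA against IFI16, a sensor of DNA. Their comparison group was radioresistant U251MG cells with the hairpin labelled shNC. All cells carried the genotype label WT. The labels name 1 hairpin against IFI16 and do not say whether the radioresistant or hairpin cells were clones or mixed populations. Nothing in them says that replicates were separate cultures, so the spread behind the p-values may be only technical. The expression columns carry codes, and their groups were inferred from the prefixes of these codes.

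Aldo-keto reductases are soluble enzymes that use NADPH to turn aldehydes and ketones into alcohols. The AKR1 branch clears reactive aldehydes made by lipid peroxidation, feeds glucose into the polyol pathway and interconverts steroids and prostaglandins. AKR1B10 and the AKR1C genes are known targets of NRF2, the transcription factor of the oxidative stress response, and are used as markers of its activity in human cells. The AKR1C genes sit in a row on chromosome 10 and arose by gene duplication.

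The AKR1C copies are close enough that short reads may be assigned to the wrong one. The start windows of AKR1C1 and AKR1C2 are shown here because they differ at few bases. They lie mostly before the start and do not measure how alike the transcripts are. The windows below, from RefSeq on the build GRCh38.p14, run from 250 bases before to 50 bases after a listed start of each gene, 5′ to 3′ on the gene's strand. The listed start of AKR1C2, at position 5003857, lies inside the span of the gene, which reaches 5018000. In AKR1C1 (chr10:4963165-4963464, plus strand) and AKR1C2 (chr10:5003808-5004107, minus strand), capitals mark the bases that differ between both genes where the windows align. Of 296 aligned positions 288 were identical, 4 were mismatches and 4 were gaps, an identity of 97.3%.
AKR1C1: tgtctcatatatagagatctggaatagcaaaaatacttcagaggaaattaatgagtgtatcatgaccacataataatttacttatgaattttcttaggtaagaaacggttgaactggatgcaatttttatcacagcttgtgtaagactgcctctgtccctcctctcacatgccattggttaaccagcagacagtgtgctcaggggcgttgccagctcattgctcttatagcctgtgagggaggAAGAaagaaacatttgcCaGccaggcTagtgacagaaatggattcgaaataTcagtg
AKR1C2: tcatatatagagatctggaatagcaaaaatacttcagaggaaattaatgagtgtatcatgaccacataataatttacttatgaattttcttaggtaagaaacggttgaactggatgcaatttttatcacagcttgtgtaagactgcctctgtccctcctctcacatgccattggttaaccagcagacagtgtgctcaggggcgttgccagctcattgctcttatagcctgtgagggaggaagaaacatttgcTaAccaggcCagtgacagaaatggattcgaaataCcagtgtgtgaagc
AKR1C3 has 2 starts in the table. The window of the downstream one (chr10:5094164-5094463, plus strand) was 75.3% identical to that of AKR1C1 and to that of AKR1C2. Its capitals mark ATTGG, the CCAAT motif read on the other strand, which stood 86 bases before the start, and 77 and 81 bases before the starts of AKR1C1 and AKR1C2.
AKR1C3: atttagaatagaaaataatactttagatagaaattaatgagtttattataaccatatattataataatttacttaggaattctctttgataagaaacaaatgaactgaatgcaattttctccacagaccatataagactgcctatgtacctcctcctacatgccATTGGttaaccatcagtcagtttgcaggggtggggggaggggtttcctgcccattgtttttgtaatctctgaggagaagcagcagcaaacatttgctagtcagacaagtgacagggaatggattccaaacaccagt
CCAAT, on either strand, was found in 34.6% of all 35116 start windows of the table. The core of the antioxidant response element, to which NRF2 binds, was searched as TGACNNNGC on both strands. It was in none of the windows of the 6 members that have one, against 13.3% of all windows. The AP-1 motif TGACTCA, which can overlap it, was in none of these windows either, against 4.95% of all. These letters may lie outside the windows searched. AKR1B10 has no window in the table.

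Expression was deposited as TPM (transcripts per 1000000), a level corrected for transcript length, so levels of different genes can be set side by side. TPM keeps no sequencing depth, and no interval from counting could be given. Between 12361 and 13016 genes reached 1 TPM in a library. Changes are differences in log2(TPM + 1), tested with limma over every gene that reached 1 TPM in 3 or more of the 6 libraries compared. A change was called at a Benjamini-Hochberg adjusted p under 0.05. IFI16 stood at 7.68, 7.90 and 6.71 TPM in shIFI16 libraries and at 125, 140 and 127 TPM in shNC libraries, which went with the labels. Of the glial markers checked, the filament gene VIM was high in all groups (5640 ± 243 TPM in radioresistant and 8822 ± 60.6 TPM in control cells, SD, n = 3 each), and S100B was under 1 TPM in every radioresistant library. GFAP, the astrocyte filament gene, averaged 80.6 ± 22.9 TPM in radioresistant and 4011 ± 112 TPM in control cells, and 31.1 ± 1.67 TPM in shIFI16 and 1.73 ± 0.344 TPM in shNC cells. All 8 glial genes of the list fell in radioresistant cells, alongside the AKR1 changes, where 27% of all genes tested fell. Only its control levels brought S100B into the test, which fixed its direction. In shIFI16 cells 3 of 7 glial genes rose and 2 fell, where 16.6% of all genes tested rose and 16.3% fell. The part of the glial genes in the AKR1 results was not tested. Of the markers of other cell types, the immune genes CD3E, AIF1 and TYROBP were listed at 0 in all libraries. The immune list of 7 genes summed to 19.4 to 23.5 TPM in radioresistant and 15.3 to 20.6 TPM in control libraries, and to at most 17.7 TPM in shIFI16 and 37.4 to 40.3 TPM in shNC libraries, where CD68 fell by 1.25 (log2, limma adjusted p = 5.52e-08). The endothelial list of 5 summed to 4.87 to 5.12 TPM in radioresistant and 12.7 to 14.7 TPM in control libraries, and to 11.7 to 14.4 TPM in shIFI16 and 6.02 to 6.68 TPM in shNC libraries. The neuron list of 5 summed to 305 to 334 TPM in radioresistant and 383 to 432 TPM in control libraries, and to 279 to 306 TPM in shIFI16 and 333 to 342 TPM in shNC libraries. The oligodendrocyte list of 4 summed to at most 1.02 TPM in any library.

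In radioresistant cells AKR1C1, AKR1C3, AKR1B10 and AKR1C2 rose against control cells, AKR1A1 fell and AKR1B1 stayed within the spread of the libraries. AKR1C1 averaged 70.0 ± 10.9 TPM in radioresistant cells, against 11.0 ± 2.05 TPM in control cells (SD, n = 3 each), a ratio of 6.35. AKR1C3 averaged 89.6 ± 10.4 TPM in radioresistant cells and 41.7 ± 2.11 TPM in control cells, a ratio of 2.15. Of the 7 members 6 were tested, 4 rose and 1 fell, where 16.9% of all 13127 genes tested rose and 27% fell (43.9% in all). These were 2220 higher and 3542 lower genes with a median change of -0.11 over all genes, and 2976 higher and 2926 lower with a median of 0.01 after median-ratio scaling. AKR1B10 and AKR1C2 were under 1 TPM in every control library, so only their radioresistant levels brought them into the test, which fixed their direction. The counts over the members are therefore a description. In bulk RNA, fewer cells that express a gene and less RNA per cell cannot be told apart.

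AKR1C1, which inactivates progesterone and reduces lipid aldehydes, had 75.5, 77.1 and 57.4 TPM in the radioresistant libraries and 8.86, 11.3 and 12.9 TPM in the control libraries. Every radioresistant library stood far above every control library. The change was 2.56 on the log2 scale (SE 0.165, limma adjusted p = 1.18e-06). It was the 92nd largest rise among all genes tested. The gene spans chr10:4963415-4983283.

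AKR1C3 makes testosterone and prostaglandin F and spans chr10:5048781-5107686. It had 98.7, 91.8 and 78.2 TPM in the radioresistant libraries and 43.4, 42.3 and 39.3 TPM in the control libraries. The groups did not overlap, and radioresistant replicate 3 was the lowest of its group for AKR1C3, AKR1C1 and AKR1C2. The change of AKR1C3 was 1.08 (log2, SE 0.120, adjusted p = 5.87e-05 by limma), the 583rd largest rise. AKR1C2, which inactivates dihydrotestosterone (chr10:4987775-5018000), had 2.23, 2.06 and 1.57 TPM in the radioresistant libraries and 0.762, 0.365 and 0.570 TPM in the control libraries. Its level was low in all libraries, and the ratio of means was 3.46. Its change was 0.92 (log2, SE 0.167, adjusted p = 0.00138 by limma), and 1.66 with a pseudocount of 0.1 in place of 1.

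AKR1B10 reduces retinal and lipid aldehydes, is abundant in intestinal epithelium and spans chr7:134527567-134541412. It had 4.89, 4.35 and 4.58 TPM in the radioresistant libraries and 0.594, 0.541 and 0.995 TPM in the control libraries. The ratio of means was 6.49, beside the 6.35 of AKR1C1, while the change of AKR1B10 in log2(TPM + 1), which is damped at low levels, was 1.72 (SE 0.158, limma adjusted p = 1.53e-05). With a pseudocount of 0.1 the log2 changes of AKR1B10 and AKR1C1 were 2.58 and 2.66. The epithelial markers EPCAM, CDH1, KRT5, KRT14, KRT19 and CLDN4 together summed to 3.00 to 4.78 TPM in radioresistant libraries and 2.83 to 3.89 TPM in control libraries, and the tested one, CLDN4, did not pass. The hepatocyte markers ALB, APOA1, TTR and SERPINA1 summed to 2.36 to 3.20 TPM in radioresistant and 0.936 to 1.53 TPM in control libraries, with SERPINA1 at 1.79 ± 0.481 TPM in radioresistant cells and listed at 0 in control cells. In shIFI16 and shNC libraries the hepatocyte sums were 0.137 to 0.675 and 0.550 to 1.00 TPM, and the epithelial sums 3.69 to 5.17 and 5.68 to 12.3 TPM. The part of these cell types in the AKR1B10 result was not tested.

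AKR1A1, the aldehyde reductase of most tissues (chr1:45550826-45570049), went the other way. It had 76.1, 61.6 and 58.3 TPM in the radioresistant libraries and 116, 115 and 120.0 TPM in the control libraries. All radioresistant libraries lay below all control libraries, with means of 65.4 ± 9.48 TPM in radioresistant and 117 ± 2.63 TPM in control cells. The change was -0.84 (log2, SE 0.122, limma adjusted p = 3.34e-04). AKR1B1, or aldose reductase, which turns glucose into sorbitol (chr7:134442350-134459239), had 365, 359 and 386 TPM in the radioresistant libraries and 377, 330.4 and 401 TPM in the control libraries. The radioresistant values lay inside the range of the control values. The change was 0.01 (log2, adjusted p = 0.971 by limma) with a 95% interval of -0.23 to 0.24. AKR1E2, which reduces anhydrofructose and is known from testis (chr10:4824973-4873237), was listed at 0 in all 12 libraries. Groups did not overlap in 5 of the 6 tested members, and in 53.1% of all genes tested (21.5% higher and 31.7% lower).

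**Figure D1:**
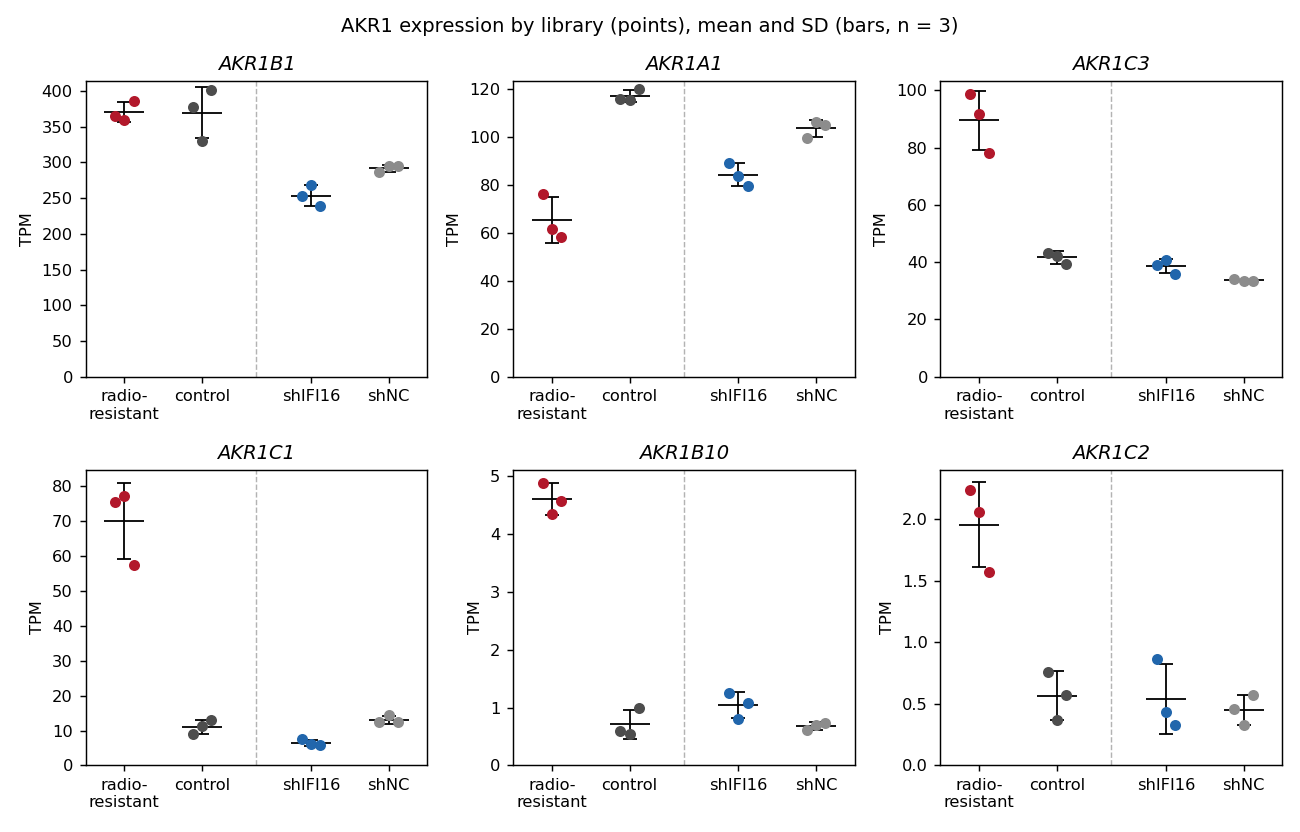
TPM of 6 AKR1 genes in each library (points), with group means and SD (bars, n = 3), for radioresistant, control, shIFI16 and shNC cells, left to right. The dashed line parts the tables, which were normalized separately. AKR1C1 lies at 57.4 to 77.1 TPM in radioresistant and at 8.86 to 12.9 TPM in control libraries, while AKR1B1 overlaps between both. AKR1E2, listed at 0 throughout, is not drawn.

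After knockdown of IFI16, AKR1C1, AKR1A1 and AKR1B1 fell in shIFI16 cells against shNC cells, and AKR1C3 missed the threshold with a change in the opposite direction. AKR1C1 averaged 6.47 ± 0.863 TPM in shIFI16 cells and 13.1 ± 1.09 TPM in shNC cells (SD, n = 3 each). Of the 7 members 4 were tested, 3 fell and 0 rose by limma, where 16.3% of all 12567 genes tested fell and 16.6% rose (32.9% in all). At an unadjusted p under 0.05 there was 1 rise, AKR1C3. The groups did not overlap in 4 of 4 tested members, 1 higher and 3 lower, and in 44.8% of all genes tested (23.4% higher and 21.4% lower). As the labels name only 1 hairpin against IFI16, loss of IFI16 and other actions of that hairpin cannot be told apart.

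AKR1C1 had 7.43, 6.23 and 5.75 TPM in the shIFI16 libraries and 12.5, 14.3 and 12.4 TPM in the shNC libraries. Each shIFI16 library was below each shNC library. The change was -0.92 (log2, SE 0.114, 95% interval -1.16 to -0.67, limma adjusted p = 1.59e-05), the 201st largest fall among the genes tested. AKR1C3 had 39.2, 40.7 and 36.0 TPM in the shIFI16 libraries and 34.0, 33.6 and 33.5 TPM in the shNC libraries. The shIFI16 values were all higher than the closely grouped shNC values. The change of 0.19 (log2, SE 0.0809, limma adjusted p = 0.0822) passed with quantile normalization (adjusted p = 0.0296) and without shIFI16 replicate 3 (adjusted p = 0.0385), within 0.0268 to 0.297 over the alternatives.

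AKR1A1 had 89.2, 83.7 and 79.6 TPM in the shIFI16 libraries and 99.4, 106 and 105 TPM in the shNC libraries. The change was -0.30 (log2, SE 0.0683, limma adjusted p = 0.00357), again downward. AKR1B1 had 252, 269 and 239 TPM in the shIFI16 libraries and 286, 295 and 294 TPM in the shNC libraries. The groups did not overlap, and the change was -0.21 (log2, SE 0.0608, limma adjusted p = 0.0168). The call of AKR1B1 was lost without shNC replicate 2 (adjusted p = 0.0561), shNC replicate 3 (0.0542) or shIFI16 replicate 3 (0.0527), and without variance trend and robust moderation (0.0743), within 0.00251 to 0.0743 over the alternatives.

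AKR1B10 and AKR1C2 were too low to test in the hairpin cells. AKR1B10 had 1.25, 0.798 and 1.09 TPM in the shIFI16 libraries and 0.608, 0.705 and 0.735 TPM in the shNC libraries. AKR1C2 had 0.863, 0.432 and 0.325 TPM in the shIFI16 libraries and 0.459, 0.326 and 0.571 TPM in the shNC libraries. Its groups overlapped, those of AKR1B10 did not. Fitted with no filter, AKR1B10 had a change of 0.28 (log2, limma adjusted p = 0.138) and AKR1C2 one of 0.07 (adjusted p = 0.766).

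**Figure D2:**
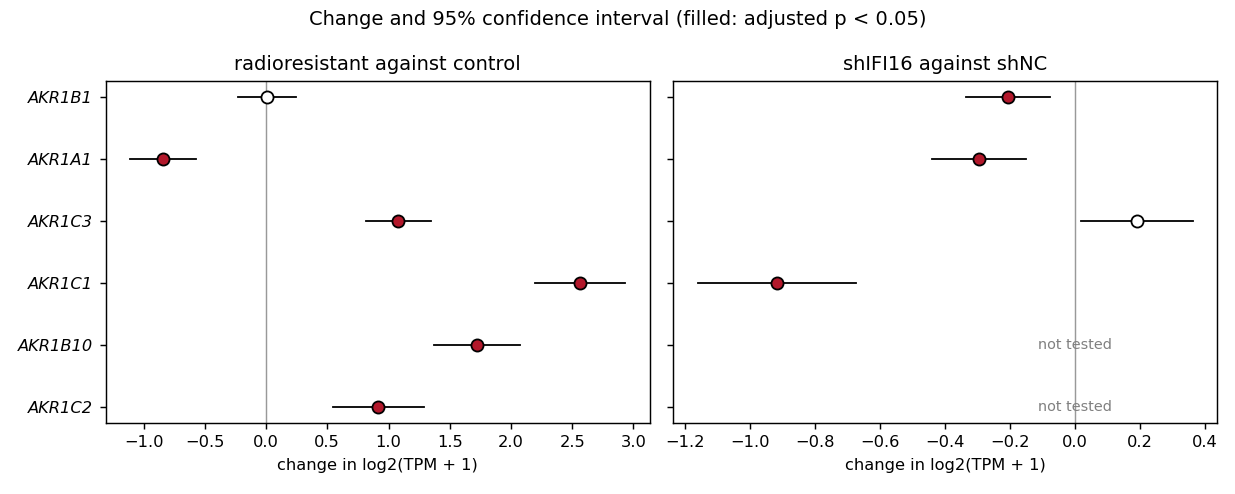
Change in log2(TPM + 1) with its 95% confidence interval for 6 AKR1 genes, radioresistant against control cells on the left and shIFI16 against shNC cells on the right, on different scales. Filled points passed an adjusted p of 0.05. AKR1C1 is at 2.56 on the left and at -0.92 on the right, and AKR1A1 is below 0 in both.

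Across the tables, shNC cells, which are labelled radioresistant, had AKR1C1 at 12.4 to 14.3 TPM, near the 8.86 to 12.9 TPM of control cells and not the 57.4 to 77.1 TPM of radioresistant cells without a hairpin. AKR1C3 stood at 33.5 to 34.0 TPM in shNC cells and AKR1B10 at 0.608 to 0.735 TPM, also at or under the control range. HMOX1, the heme oxygenase gene and an NRF2 target, stood at 30.1 to 34.8 TPM in shNC, 168 to 260 TPM in radioresistant and 19.7 to 26.4 TPM in control cells. AKR1C2 overlapped the control range, at 0.326 to 0.571 TPM in shNC cells. AKR1A1, at 99.4 to 106 TPM in shNC cells, lay between the radioresistant and control ranges. AKR1B1, at 286 to 295 TPM, lay under both. IFI16 stood at 125 to 140 TPM in shNC, 49.6 to 71.1 TPM in control and 243 to 309 TPM in radioresistant cells. GFAP, at 1.73 TPM on average in shNC cells, was lower there than in control and radioresistant cells. The tables were normalized separately and no test was made between them, so the hairpin and the table cannot be told apart here.

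As reads may move between the AKR1C copies, their sum was also taken. AKR1C1, AKR1C2 and AKR1C3 together had 176, 171 and 137 TPM in the radioresistant libraries and 53.0, 53.9 and 52.8 TPM in the control libraries. Their sum was 47.5, 47.4 and 42.1 TPM in the shIFI16 libraries and 47.0, 48.2 and 46.4 TPM in the shNC libraries. The sum was thus apart between radioresistant and control cells, but overlapped between shIFI16 and shNC cells. AKR1C1 made up 41.8 to 45.1% of the sum in radioresistant cells and 16.7 to 24.5% in control cells. Its share was 13.1 to 15.6% in shIFI16 cells and 26.6 to 29.7% in shNC cells. Neither pair of ranges overlapped. AKR1C2 made up 0.677 to 1.82% of the sum in any library, although its start window is nearly that of AKR1C1. These shares do not depend on the scaling of a library, and no test was made on them.

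**Figure D3:**
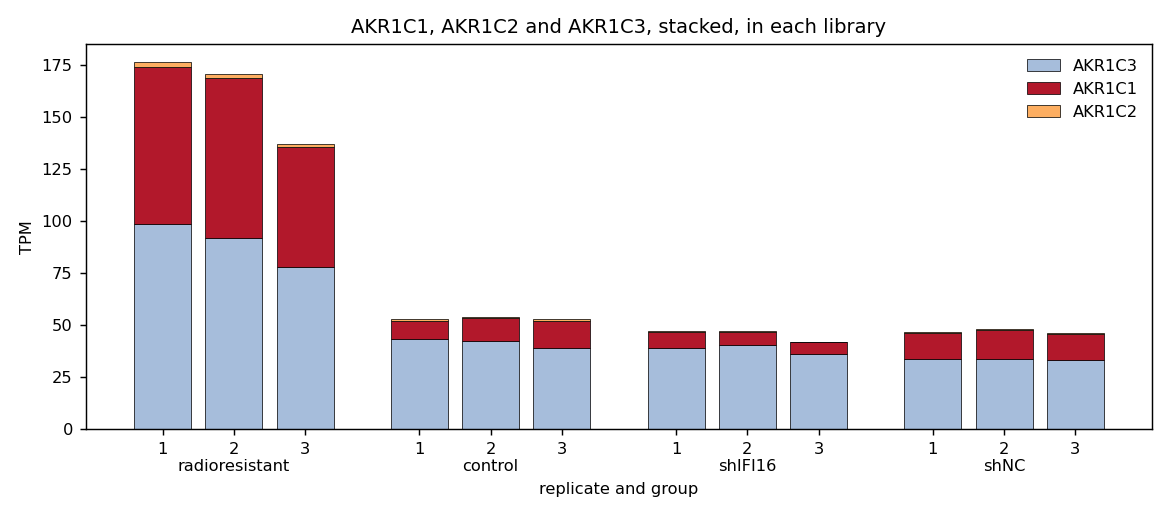
Stacked TPM of AKR1C3 (bottom), AKR1C1 (middle) and AKR1C2 (top) in each of 12 libraries, with replicate numbers under the bars and groups from radioresistant to shNC. The bars reach 137 to 176 TPM in radioresistant and 52.8 to 53.9 TPM in control libraries. In shIFI16 and shNC libraries the bars are about as tall as each other, with a smaller AKR1C1 part in shIFI16.

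AKR1B1 had the highest level of the members in all 4 groups and made up 58.7 to 65.9% of the summed TPM of the 7 members in radioresistant libraries, against 66.1 to 69.8% in control libraries. In radioresistant cells AKR1C3, AKR1C1, AKR1A1, AKR1B10 and AKR1C2 followed in falling order, and AKR1C1 and AKR1A1 overlapped (57.4 to 77.1 and 58.3 to 76.1 TPM). In control, shIFI16 and shNC cells AKR1A1 came second, then AKR1C3, AKR1C1, AKR1B10 and AKR1C2. Only AKR1B10 and AKR1C2 overlapped there, in control and shIFI16 cells and not in shNC cells. The 7 members together summed to 586 to 623 TPM in radioresistant and 500.2 to 575 TPM in control libraries. They summed to 362 to 400.4 TPM in shIFI16 and 433 to 450.2 TPM in shNC libraries.

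Of 12 other rows of the aldo-keto reductase family 4 were tested in radioresistant cells. There 1 rose and 1 fell, where 16.9% of all genes tested rose and 27% fell. In shIFI16 cells 3 were tested, 0 rose and 1 fell, where 16.6% of all genes tested rose and 16.3% fell. AKR1B15 and AKR1D1 were listed at 0 in all 12 libraries, and AKR1C4 in all but 2 shIFI16 libraries, where it reached 0.0345 TPM at most. AKR7A2, which reduces succinic semialdehyde, averaged 52.3 ± 4.79 TPM in radioresistant and 58.4 ± 2.60 TPM in control cells (log2 change -0.16, limma adjusted p = 0.287). Its change in shIFI16 against shNC cells was -0.04 (log2, adjusted p = 0.756 by limma). KCNAB2, a beta subunit of potassium channels with the same fold, had 15.7, 13.1 and 13.1 TPM in radioresistant libraries and 4.62, 6.36 and 9.38 TPM in control libraries (log2 change 0.98, limma adjusted p = 0.00321). It fell to 2.24 ± 0.283 TPM in shIFI16 cells, against 3.56 ± 0.271 TPM in shNC cells (log2 change -0.49, limma adjusted p = 0.00825). KCNAB3, another such subunit, fell by 1.58 in radioresistant cells (log2, limma adjusted p = 2.59e-05), where it was under 1 TPM in every library, so the filter fixed its direction.

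The other NRF2 targets rose more often than they fell in radioresistant cells: of 32 listed genes 29 were tested, 14 rose and 3 fell, where 16.9% of all genes rose and 27% fell, with a median change of 0.36 against -0.11 over all genes. The falls numbered 1 without control replicate 2 or radioresistant replicate 3. HMOX1 rose by 3.02 and the carbonyl reductase gene CBR3 by 1.71 (log2, limma adjusted p = 5.03e-07 and 2.25e-06). Thioredoxin reductase TXNRD1 rose by 1.18 and the autophagy receptor gene SQSTM1 by 1.01 (limma adjusted p = 4.86e-05 and 2.25e-05). In shIFI16 against shNC cells 30 were tested, 11 rose and 4 fell, where 16.6% of all genes rose and 16.3% fell, with a median of 0.13 against 0.02. There CBR3 fell by 0.67, the carboxylesterase gene CES1 by 1.88 and HMOX1 by 0.53, whereas the pentose phosphate gene TKT rose by 0.53 (log2, largest limma adjusted p = 3.03e-04). CES1 was under 1 TPM in all shIFI16 libraries, so its direction was fixed by the filter.

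Among NRF2 and its regulators 4 of 10 rose and 2 fell in radioresistant cells, where 16.9% of all genes rose and 27% fell. MAFF and MAFG, small partners of NRF2 on DNA, rose by 1.24 and 0.53 (limma adjusted p = 2.07e-04 and 0.00506). The rises of the list numbered 2 without control replicate 2 or radioresistant replicate 1 or 3. Its falls numbered 0 without control replicate 1 or 2 or radioresistant replicate 1 or 3. NFE2L2, which encodes NRF2, had 55.5, 68.0 and 55.5 TPM in radioresistant libraries and 90.7, 88.6 and 58.9 TPM in control libraries. These ranges overlapped through control replicate 3 (log2 change -0.39, limma adjusted p = 0.0871). KEAP1, which marks NRF2 for degradation, had 113, 97.5 and 109 TPM in radioresistant libraries and 67.7, 72.1 and 95.9 TPM in control libraries. In the hairpin cells 1 of 10 rose and 3 fell, where 16.6% of all genes rose and 16.3% fell. However, the rises numbered 0 to 2 over the alternatives and the falls 1 without shNC replicate 1 or 2. KEAP1 fell to 69.7 ± 5.57 TPM in shIFI16 cells, against 97.4 ± 3.28 TPM in shNC cells (log2 change -0.48, limma adjusted p = 1.16e-04).

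Genes around the AKR1 reactions moved both ways, and some stand in more than 1 list (among them CBR1, CBR3, DCXR, SORD, RDH10 and TKT). The counts of these lists stand against 16.9% of all genes that rose and 27% that fell in radioresistant cells, and 16.6% and 16.3% in shIFI16 cells. Of 17 tested carbonyl reductase and dehydrogenase genes outside the AKR family, 6 rose and 8 fell in radioresistant cells, and 2 rose and 2 fell in shIFI16 cells (4 fell with median-ratio scaling or quantile normalization). The rise of DHRS3 in shIFI16 cells had its direction fixed by the filter, as DHRS3 was under 1 TPM in every shNC library. CBR1 rose by 0.95 and the retinol dehydrogenase gene RDH10 by 1.20, while the xylulose reductase gene DCXR fell by 1.13 in radioresistant cells (log2, largest limma adjusted p = 1.47e-04). SORD, which acts on the sorbitol made by AKR1B1, rose by 0.64 (log2, limma adjusted p = 0.00208), as the only rise beside 3 falls among 6 polyol and glyoxal genes. The falls numbered 1 with median-ratio scaling and without radioresistant replicate 3. In shIFI16 cells 1 of those 6 rose (GLO1, 0.35) and 1 fell (HAGH, -0.37), both enzymes of methylglyoxal removal (largest limma adjusted p = 0.00189). Of 13 genes that supply NADPH 2 rose and 4 fell in radioresistant cells, with IDH2 down by 1.13 (limma adjusted p = 1.92e-04), and 5 rose and 2 fell in shIFI16 cells. The 2 rises in radioresistant cells became 1 without any single library other than control replicate 3, and the 5 in shIFI16 cells became 3 without shNC replicate 1 or 3 or shIFI16 replicate 2.

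Of 16 tested steroid genes 1 rose and 9 fell in radioresistant cells, with a median of -0.51 against -0.11 over all genes. The steroid sulfatase gene STS fell by 1.21 and HSD17B4, which acts in the peroxisome, by 0.80 (log2, limma adjusted p = 1.30e-04 and 3.46e-04). In shIFI16 cells 2 rose and 4 fell, with HSD3B7 of bile acid synthesis down by 1.04 (limma adjusted p = 1.53e-05). The steroid rises numbered 0 in radioresistant cells without control replicate 2 or any radioresistant replicate, and in shIFI16 cells 4 without shNC replicate 3 and 1 without shIFI16 replicate 2. Of 7 tested prostaglandin genes 2 rose and 5 did not pass in radioresistant cells. A rise among them, that of the cyclooxygenase gene PTGS1, had its direction fixed by the filter, as PTGS1 was under 1 TPM in every control and every shNC library. PTGER4, a receptor of prostaglandin E, rose by 0.88 (limma adjusted p = 9.50e-04). In shIFI16 cells 2 rose, PTGS1 among them, and 3 fell, and PTGER4 fell by 0.79 (limma adjusted p = 8.04e-05). The 2 rises became 1 without replicate 1 or 2 of shNC or of shIFI16 cells. Of 10 retinoid genes 4 rose and 4 fell in radioresistant cells, among them CRABP2, which carries retinoic acid (up by 1.39), and STRA6, which takes up retinol (down by 1.93; largest limma adjusted p = 2.57e-04). In shIFI16 cells 4 rose and 1 fell, the retinoic acid hydroxylase gene CYP26B1 (by 0.76, limma adjusted p = 1.07e-04). DHRS3, which is also among these rises, had its direction fixed by the filter. The 4 rises became 7 without shIFI16 replicate 3.

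**Figure D4:**
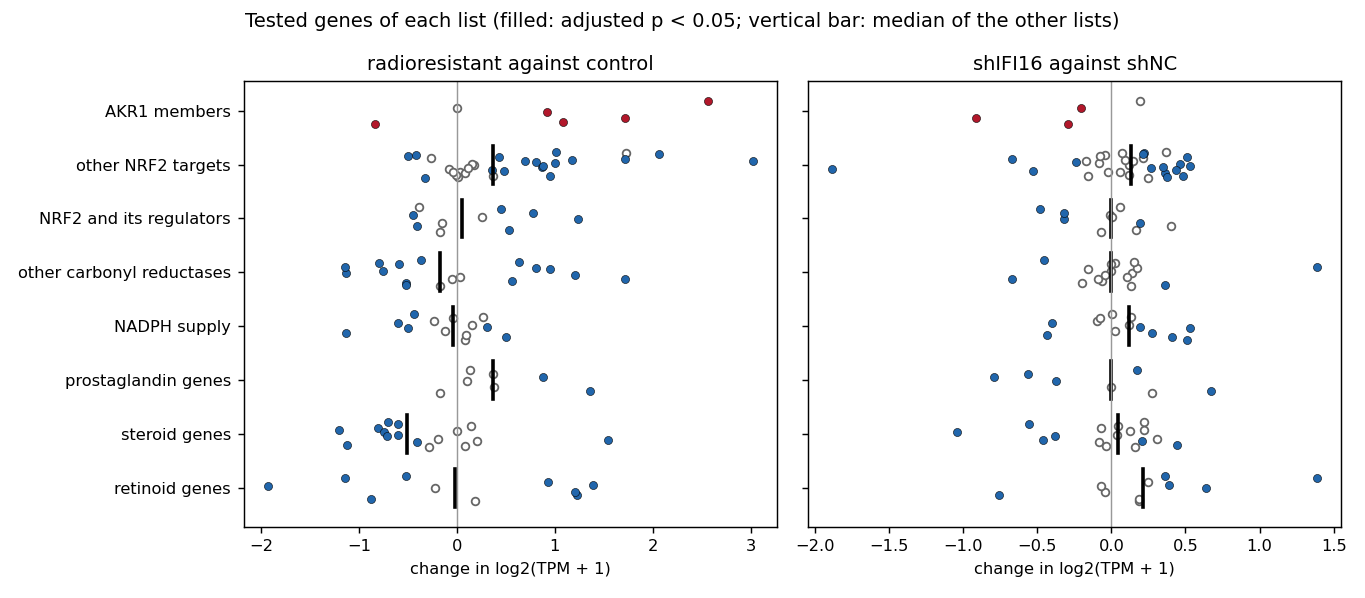
Change in log2(TPM + 1) of every tested gene of 8 lists, radioresistant against control cells on the left and shIFI16 against shNC cells on the right. Filled points passed an adjusted p of 0.05 and vertical bars are list medians, drawn for the lists other than the AKR1 members. The other NRF2 targets have a median of 0.36 on the left and 0.13 on the right, and the steroid genes one of -0.51 on the left.

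The genes with the most similar pattern over the 12 libraries were found by the root mean square difference of log2(TPM + 1), centred within each table, among 10523 genes tested in both tables and with a mean of at least 5 TPM. For AKR1C1 they included IFIT2, which binds viral RNA (difference 0.12), and UBA7, which activates ISG15 (0.15). IFIT2 had changes of 2.68 in radioresistant and -1.05 in shIFI16 cells, beside 2.56 and -0.92 for AKR1C1. For AKR1C3 they were the annexin gene ANXA6 (0.05) and the transcription factor genes ATF4 and EPAS1 (0.10 each). For AKR1A1 they were HDAC6, MSRB2 and CDK5RAP3 (0.07 to 0.08), and for AKR1B1 QTRT1, NFS1 and CHTOP (0.05 to 0.06). For AKR1B10 they were HIST2H2BC, TBC1D2 and LAP3 (0.11 to 0.14), and for AKR1C2 PITPNM2, SESN2 and ANXA6 (0.11 to 0.14). The changes of these 2 low members are damped in log2(TPM + 1), and likeness with another pseudocount was not tested.

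Open chromatin was deposited as 12877 summits in the radioresistant library and 2454 in the control library, each with the -log10 q-value of its peak. In the radioresistant library a summit lay within 1 kb of the start of 3 of the 6 members with a start in the table, where 19.2% of all genes had one. In the control library this held for 0 of 6 members, where 3.58% of all genes had one. Within 10 kb the members' counts were again 3 and 0, against 27.6% and 5.47% of all genes, and within 50 kb they were 5 and 1, against 52.3% and 13.9%. The summit at AKR1C1 stood 132 bases inside the gene (chromosome 10, position 4963547) with a score of 2.52, and that at AKR1B1 290 bases downstream of the nearer of its 2 starts in the table (chromosome 7, position 134458810) with a score of 6.72. The library median was 4.08. The summit at AKR1A1, at position 45550744 on chromosome 1, had a score of 1.62 and stood 82 bases before the start. It ranked 12487th of the 12877 summits by score, near the lowest score of the library, 1.31. In the window of AKR1A1 (chr1:45550576-45550875, plus strand, RefSeq, GRCh38.p14) capitals mark 21 bases centred on that summit.
AKR1A1: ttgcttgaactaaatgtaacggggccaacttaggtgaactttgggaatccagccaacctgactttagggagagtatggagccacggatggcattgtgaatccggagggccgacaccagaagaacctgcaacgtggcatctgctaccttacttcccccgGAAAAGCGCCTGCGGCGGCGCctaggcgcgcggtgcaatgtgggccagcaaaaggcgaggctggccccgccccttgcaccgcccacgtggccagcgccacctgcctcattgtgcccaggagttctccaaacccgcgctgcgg
AKR1C3 had 1 summit inside the gene (position 5071368, score 2.87), and AKR1B10 had the nearest one 6344 bases past an end of the gene (chromosome 7, position 134547756, score 4.76). With 1 library per condition and far more summits in the radioresistant one, a summit seen in that library alone is no measured gain. The part of open chromatin in the RNA changes was not tested.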

How the data were processed

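RNA-seq of 12 U251MG libraries and ATAC-seq of 2 were used. The authors deposited TPM in 2 tables named as counts, since every column sums to 1000000 and holds fractions. Per the submitters' processing notes the build was hg38, with featureCounts, Cufflinks 2.2.1, TopHat and Trim Galore 0.6.6, and for ATAC-seq MACS2 2.1.4, SAMtools 1.10 and Bowtie2 2.2.5 as well. The tool behind the TPM is not given in the sources used here, nor is any strand setting. The summits deposited per library carry a -log10 q-value, by the layout of the file. Column codes were read as groups: UN as control and UR as radioresistant after the ATAC-seq file names, URN as shNC and URS as shIFI16. Low IFI16 went with the last reading, but nothing comparable checks UN against UR.

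Each comparison was fitted within its table on log2(TPM + 1) by limma 3.58.1 (R 4.3.3), with trended and robust variances, and tested on simulated data. A few rows whose names had become dates (28 per table) were left out. Sequences were aligned with Biopython 1.88. The members and lists were chosen with earlier results of these data known. All 7 members are named, and from other lists up to 4 genes with the smallest p, plus NFE2L2, IFI16, VIM and KEAP1 as context and, in shIFI16 cells, HMOX1, chosen after their values were seen. Some genes that this rule names are not reported here. Alternatives were another pseudocount, 2 other filters, 2 scalings, plain variances, a replicate block and each library left out.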

Additional observations from a re-analysis of the deposited data

How the results depend on the processing

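In radioresistant against control cells 4 members rose and 1 fell under all 13 alternatives. AKR1B1, which passed under none, turned to -0.0064 with quantile normalization, and ranged from -0.0723 to 0.0675 with 1 library left out (-0.0723 without control replicate 2, -0.0246 without radioresistant replicate 3). In shIFI16 against shNC cells the count of raised members was 1 in place of 0 with quantile normalization and with the replicate block (AKR1C3), and 0 to 1 with 1 library left out. The lowered members then numbered 2 to 3. For the block, deviations of same-numbered libraries had r = -0.38, 0.25 and 0.08 in the first comparison and 0.22, 0.09 and 0.03 in the second. Differently numbered libraries had r from -0.43 to 0.39 in the first and from -0.23 to 0.15 in the second. Whether the numbers pair the samples cannot be told from so few values. With the block AKR1C3 had an adjusted p = 0.0268 by limma and no other member changed its call. The calls AKR1B1 lost are given with its values. Summits near member starts numbered 8 within 50 kb but 3 within 10 kb and 3 within 1 kb in the radioresistant library, and 2, 0 and 0 in the control library.

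With median-ratio scaling, which shifted the median of all genes, AKR1C1 (2.68), AKR1C3 (1.20) and AKR1A1 (-0.72) kept their calls in radioresistant cells. The genes taken from other lists by smallest p, with AKR7A2 and IFI16, were also rerun, a step added after seeing the data. Of 975 repeats 48 lost the call and 0 reversed, and AKR7A2 had no call to lose. Not rerun were NFE2L2, the genes of similar pattern, KEAP1 and VIM in radioresistant cells and HMOX1 in shIFI16 cells. List counts, rerun likewise, moved more, and single libraries that moved them are given with the lists. Settings that kept all libraries moved some counts as well. Under these the retinoid rises in shIFI16 cells ranged from 3 to 7 and the prostaglandin rises there from 1 to 3. The NADPH rises in radioresistant cells ranged from 1 to 3 and the steroid rises there from 1 to 2. TPM hides depth, so the precision of AKR1C2 and AKR1B10, under 5 TPM in all libraries, is unknown.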
